A study of Mus musculus with 24 samples.

Results

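The levels of 34 genes that act in mitosis were followed through LPS-stimulated mouse dendritic cells that carry BRAF-V600E or do not. The genes were taken by symbol from a list of known mitosis genes. The list sets no threshold on a measured value, but it was drawn up with earlier results of these data known, so the calls are not free of selection. All 34 were found among the 54309 gene models of the deposited count table. Bulk bone marrow was cultured for 7 days in medium rich in GM-CSF, which gives bone marrow-derived dendritic cells together with other myeloid cells. The mice were wild type (WT) or of the genotype labelled LCH, the model of Langerhans cell histiocytosis, a myeloid neoplasia in which the mutant kinase BRAF-V600E signals through MEK and ERK. The promoter or Cre driver behind the mutant allele is not given in the sources used here. Cells received a BRAF-V600E inhibitor, which the labels do not name, for 1 h, or no inhibitor. All cells, controls included, then received LPS for 3 h, at 100 ug/mL per the labels, and a cycloheximide pulse at 100 ug/mL. Total RNA was taken from an aliquot of the lysate, and polysome RNA from 500 uL of the combined fractions that held more than 2 polysomes. The 24 libraries form 8 groups of 3. Pool letters tell the libraries apart, namely A, BD and C in WT and E, F and G in LCH. What was pooled is not stated.

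Entry into mitosis is driven by the kinase CDK1 bound to A- and B-type cyclins. Aurora and Polo-like kinases build the spindle, the checkpoint proteins hold anaphase until every kinetochore is attached, and CDC20 then turns on the ubiquitin ligase APC/C, which destroys cyclin B. Most of these genes are transcribed late in the cell cycle, in G2, from promoters that carry CCAAT boxes bound by NF-Y and a cell cycle homology region (CHR), through which the DREAM complex silences them in resting cells and B-MYB and FOXM1 with MuvB activate them. Dendritic cell cultures made with GM-CSF start from dividing progenitors, and mature dendritic cells rarely divide.

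The promoters of the group were searched for these elements in the RefSeq tables of build GRCm38.p6, from 250 bases before to 50 bases after each annotated start. An entry was found for 28 of the 34 genes. Kif20a, Pbk, Foxm1, Aurkb, Ccna2 and Tpx2 were not matched. The letters CCAAT, read on both strands, occurred in 21 of the 28 (75%), against 37.4% of 32851 mouse promoters. They occurred at least 2 times in 15 (53.6%), against 11.7%. The core CHR letters TTTGAA or TTCGAA, read on both strands, lay in the last 100 bases of 20 promoters (71.4%), against 5.31% of all. Both elements were present in the 300 bases of 19 promoters (67.9%), against 7.52%. Neither was found for Birc5, Melk, Mybl2, Nuf2 and Nusap1. Such matches describe the letters of these windows and are not shown to be bound.

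The promoters of Cdk1, Ccnb2, Top2a and Ube2c are shown as examples with at least 3 copies of CCAAT, which those of Hmmr, Cdca8 and Cdca3 also hold. Those of Mki67 and Mybl2 are shown because these are the members whose level did not follow the rest below. Capitals mark these elements on either strand, so that ATTGG is CCAAT read in reverse and TTCAAA is the reverse of TTTGAA, and 2 matches of Ube2c overlap, 1 on each strand. The windows are chr10:69352863-69353162 on the minus strand for Cdk1, chr9:70421505-70421804 on the minus strand for Ccnb2, chr11:99024140-99024439 on the minus strand for Top2a, chr2:164769679-164769978 on the plus strand for Ube2c, chr7:135716330-135716629 on the minus strand for Mki67 and chr2:163054385-163054684 on the plus strand for Mybl2. Each is written 5′ to 3′ along its gene.
Cdk1: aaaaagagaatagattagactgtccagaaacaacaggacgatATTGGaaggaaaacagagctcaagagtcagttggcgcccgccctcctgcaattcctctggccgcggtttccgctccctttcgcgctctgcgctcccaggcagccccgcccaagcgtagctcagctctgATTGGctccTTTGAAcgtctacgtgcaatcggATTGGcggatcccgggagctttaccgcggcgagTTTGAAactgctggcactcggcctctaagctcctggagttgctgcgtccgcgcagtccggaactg
Ccnb2: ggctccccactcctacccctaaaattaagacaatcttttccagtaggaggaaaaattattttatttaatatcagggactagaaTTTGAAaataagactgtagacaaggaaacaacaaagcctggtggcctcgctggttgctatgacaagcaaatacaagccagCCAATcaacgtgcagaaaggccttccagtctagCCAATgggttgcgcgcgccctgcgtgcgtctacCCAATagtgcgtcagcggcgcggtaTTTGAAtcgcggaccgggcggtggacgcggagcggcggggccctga
Top2a: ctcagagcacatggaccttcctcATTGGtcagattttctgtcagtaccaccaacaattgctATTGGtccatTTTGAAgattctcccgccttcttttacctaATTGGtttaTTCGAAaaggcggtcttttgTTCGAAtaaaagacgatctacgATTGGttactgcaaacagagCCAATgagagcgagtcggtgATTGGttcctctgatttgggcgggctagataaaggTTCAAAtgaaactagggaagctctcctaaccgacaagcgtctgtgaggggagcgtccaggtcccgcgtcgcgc
Ube2c: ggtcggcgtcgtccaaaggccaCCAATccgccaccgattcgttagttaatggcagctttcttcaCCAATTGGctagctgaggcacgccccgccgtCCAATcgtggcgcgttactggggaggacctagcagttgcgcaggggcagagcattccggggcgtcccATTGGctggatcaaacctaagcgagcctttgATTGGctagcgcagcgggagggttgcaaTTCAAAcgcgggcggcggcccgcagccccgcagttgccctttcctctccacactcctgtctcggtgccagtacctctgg
Mki67: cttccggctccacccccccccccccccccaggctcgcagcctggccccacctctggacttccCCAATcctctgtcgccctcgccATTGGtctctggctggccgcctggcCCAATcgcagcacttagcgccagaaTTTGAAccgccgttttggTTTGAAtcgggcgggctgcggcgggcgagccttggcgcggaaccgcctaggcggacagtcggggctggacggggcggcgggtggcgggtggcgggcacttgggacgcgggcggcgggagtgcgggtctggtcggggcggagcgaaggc
Mybl2: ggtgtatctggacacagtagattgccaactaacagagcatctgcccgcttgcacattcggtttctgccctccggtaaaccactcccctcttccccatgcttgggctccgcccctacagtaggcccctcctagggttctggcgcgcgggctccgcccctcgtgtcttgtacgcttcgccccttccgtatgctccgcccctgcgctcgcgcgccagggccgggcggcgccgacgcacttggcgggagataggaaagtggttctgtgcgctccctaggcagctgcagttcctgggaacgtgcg
In Cdk1, the reverse CCAAT matches lay 208, 80 and 48 bases before the start and TTTGAA 71 and 15 bases before it. Ccnb2 held 3 CCAAT letters, 87, 54 and 21 bases before the start, and TTTGAA 167 bases before and 4 bases after it. In Top2a and Ube2c, 6 CCAAT matches were found each. The Mki67 window held 3 CCAAT and 2 TTTGAA matches, all of them between 98 and 188 bases before the start, while the Mybl2 window held none of these letters.

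Total RNA libraries held 19046640 to 39792221 counts, and every member had a count in each of the 12. Polysome libraries of LCH cells ranged from 9188923 to 30455139 counts, and 4 rRNA-type genes took 18 to 65.1% of them. WT polysome libraries kept only 24065 to 1171449 counts outside these genes, and 5 to 225 counts over all members. The 4 libraries of LCH pool G detected 27571 to 38431 genes, and the other LCH libraries 11077 to 18406. In the untreated pool G culture Trip13, a checkpoint ATPase that also acts in meiosis, stood at 3098 CPM in total RNA and 1574 CPM in polysome RNA (83857 and 26929 counts). CPM are counts relative to the TMM-scaled library size. In the other 11 total RNA libraries Trip13 lay between 16.5 and 24.7 CPM. In that total RNA library 8 genes, Trip13 among them, exceeded 20 times every other total RNA library, a count chosen after the values were seen; the others were Catsper1, Majin, Rec114, C2cd6, 8030474K03Rik, Hormad1 and Gm6610. Summed levels are therefore given without Trip13, and counts with and without it.

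The deposited counts do not show the V600E change itself. Ccnd1 and Dusp6, known outputs of ERK signalling, served as readouts. Ccnd1 stood at 12.6 ± 3.10 CPM in WT and 148 ± 11.2 CPM in LCH without inhibitor, and at 12.3 ± 3.41 and 39.3 ± 1.53 CPM with it (SD, n = 3). Dusp6 stood at 7.27 ± 2.02 CPM in WT and 55.1 ± 14.4 CPM in LCH without inhibitor, and at 8.97 ± 1.86 and 10.1 ± 0.782 CPM with it. Both fell with the inhibitor in LCH cells, by 1.92 and 2.45 on the log2 scale (edgeR, adjusted p = 0.00174 and 0.00117).

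Mitosis genes were higher in LCH than in WT total RNA in the absence of inhibitor. Of the 34 members, 27 rose, none fell and 7 did not pass (edgeR quasi-likelihood test, Benjamini-Hochberg adjusted p under 0.05 over 13375 genes). Among all genes tested, 14.8% were called higher and 14.9% lower, or 29.7% in all. The median log2 fold change of the members was 1.00, against 0.02 over all genes tested. Trip13 aside, 26 rose. When genes with low counts were kept, the median over all genes was 1.31 and that of the members 0.98. The members thus lay below it, and 22 members rose, while the share of all genes called is not given. Untreated LCH pool G detected 37388 genes in total RNA, and the other untreated total RNA libraries 16837 to 17407. The part of these additional genes in that median was not tested. In bulk samples a larger share of dividing cells and more of each mRNA per dividing cell cannot be told apart. The labels name the libraries biological replicates without stating whether a pool is 1 animal. The p-values measure the spread between libraries within each group of the fit. Treated and untreated libraries of a pool entered it as separate although they deviated together, so the spread rests on fewer independent pools than libraries.

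Without inhibitor, the summed level of the 33 members other than Trip13 was 926 CPM in pool A, 597 in BD and 706 in C of WT. In LCH it was 1506 CPM in pool E, 1310 in F and 928 in G. The groups did not overlap, but LCH pool G lay only just above WT pool A. With inhibitor the sums were 903, 696 and 852 CPM in WT and 1578, 1374 and 1058 CPM in LCH, again without overlap. The means were 743 ± 168 and 1248 ± 294 CPM without inhibitor and 817 ± 108 and 1337 ± 262 CPM with it, for WT and LCH (SD, n = 3). In 24 members every LCH library lay above every WT library without inhibitor, as in 22.8% of genes tested.

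**Figure D1:**
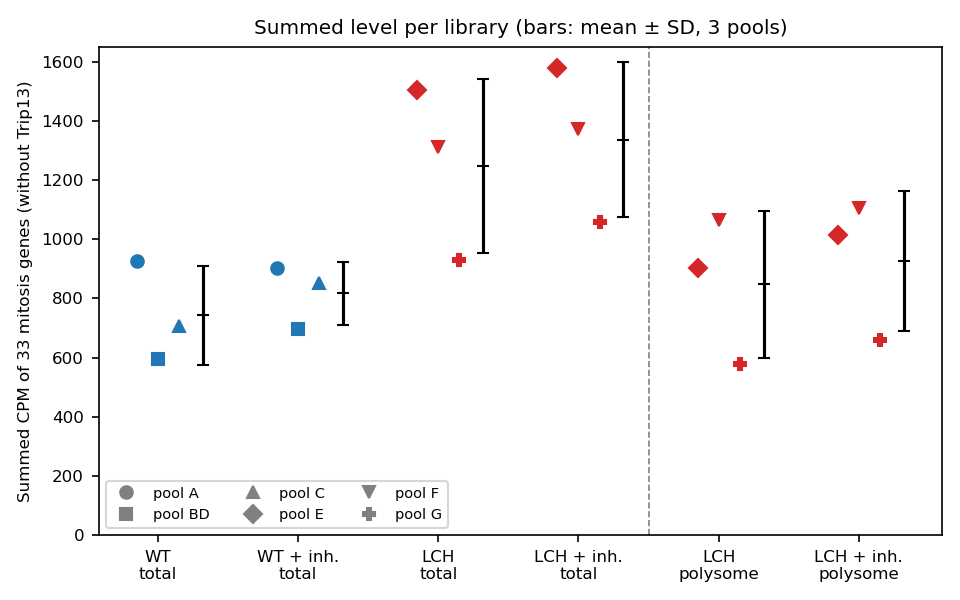
Summed CPM of 33 mitosis genes (vertical axis, linear from 0) in each total RNA library and each LCH polysome library, by group, with Trip13 left out. Symbols mark pools and bars show mean ± SD of 3 pools; total RNA sums run from 597 to 926 CPM in untreated WT and from 928 to 1506 CPM in untreated LCH, and total and polysome libraries were scaled separately.

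Of Cdk1 and its 3 cyclins, all but Ccnb2 rose in LCH cells. Cdk1, the kinase that drives entry, had 22.6, 16.1 and 19.3 CPM in WT and 45.8, 42.5 and 31.0 CPM in LCH, without overlap. Its log2 fold change was 1.04 (SE 0.19, adjusted p = 0.00248). Its partners Ccnb1 and Ccna2 rose by 1.12 (SE 0.28) and 1.06 (SE 0.26). Ccnb1 ran from 15.02 to 23.3 CPM in WT and from 26.5 to 49.6 CPM in LCH, again without overlap. Ccnb2 had 0.88 (SE 0.36) and did not pass, with 10.9 to 29.4 CPM in WT and 25.8 to 45.4 CPM in LCH. Its highest WT library, pool A, exceeded LCH pool G. Ccna2 lies opposite Exosc9 on the other strand, and the sources used here do not say whether counting used strand.

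The other kinases and entry factors followed in part. Plk1, which acts at centrosomes and kinetochores, had 15.8, 9.44 and 11.2 CPM in WT and 36.4, 28.6 and 16.3 CPM in LCH. It rose by 1.15 (SE 0.29), although LCH pool G was close to WT pool A. The spindle kinase Aurka (1.00, SE 0.33) and the kinase Pbk (0.99, SE 0.29) rose. Melk (0.75, SE 0.31) and Cdca3 (0.92, SE 0.32), which promotes turnover of the mitosis inhibitor WEE1, did not pass. All members of the chromosomal passenger complex, which corrects faulty kinetochore attachments, rose. Its kinase Aurkb had 12.7, 8.11 and 7.81 CPM in WT and 29.4, 19.7 and 17.0 CPM in LCH, a log2 fold change of 1.20 (SE 0.24). Birc5 (survivin) and Cdca8 (borealin) rose by 1.02 (SE 0.25) and 0.96 (SE 0.24).

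Of the 11 checkpoint, APC/C and kinetochore members, all but Ube2c passed, and 1 of them, Trip13, through a single library. Bub1, Bub1b and Ttk, kinases and a pseudokinase of the spindle checkpoint, rose by 0.95 (SE 0.24), 0.94 (SE 0.28) and 0.99 (SE 0.20). The call of Trip13 (5.62, SE 1.75, adjusted p = 0.0402) rested on 1 library. It had 23.7, 18.2 and 22.1 CPM in WT and 23.9, 24.7 and 3098 CPM in LCH, and without untreated pool G its log2 fold change was 0.19 (adjusted p = 0.378). Cdc20, the activator of APC/C, had 12.3, 8.29 and 11.6 CPM in WT and 30.3, 21.4 and 13.4 CPM in LCH, and rose by 1.01 (SE 0.32). The APC/C ubiquitin-conjugating enzyme gene Ube2c (0.92, SE 0.34) did not pass. All 5 kinetochore genes rose, from 0.75 (SE 0.23) for Nuf2 to 1.28 (SE 0.18) for Cenpe, the motor that carries chromosomes to the spindle equator. Cenpe had the smallest adjusted p of the members (0.000523), with 24.7, 13.6 and 16.2 CPM in WT and 46.9, 44.9 and 40.8 CPM in LCH. Ndc80, Spc25 and Cenpf rose by 1.20 (SE 0.25), 0.83 (SE 0.26) and 0.94 (SE 0.33).

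Of the 7 spindle and cytokinesis genes, 6 rose. Kif23, a motor of the central spindle, had 10.1, 5.18 and 8.32 CPM in WT and 28.8, 22.3 and 16.0 CPM in LCH. It rose by 1.5025 (SE 0.29, adjusted p = 0.00305), the largest change outside Trip13. Kif11, the motor that separates spindle poles, rose by 1.18 (SE 0.17, adjusted p = 0.000538), from 18.0, 14.2 and 18.2 CPM to 43.5, 40.8 and 30.0 CPM. Prc1, Hmmr, Tpx2 and Nusap1, proteins that bundle or organise microtubules, rose by 1.07 (SE 0.33), 0.89 (SE 0.25), 0.69 (SE 0.19) and 0.67 (SE 0.22). Kif20a, a motor of the cleavage furrow, had 1.00 (SE 0.37) and did not pass.

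Both transcription factors of the late cell cycle were measured, and their values had opposite signs. Foxm1 had 7.89, 5.35 and 7.19 CPM in WT and 17.9, 16.3 and 12.3 CPM in LCH, and rose by 1.18 (SE 0.22, adjusted p = 0.00216). Mybl2, which encodes B-MYB, had 45.5, 22.04 and 21.6 CPM in WT and 17.1, 18.8 and 15.6 CPM in LCH. All LCH libraries lay below all WT libraries, as in 22.1% of genes tested, but the change of -0.79 (SE 0.31, adjusted p = 0.0752) did not pass. DESeq2 called it lower (adjusted p = 0.0352). The chromatin genes also differed from each other. Top2a, which untangles DNA, had 108, 54.2 and 75.9 CPM in WT and 204, 179 and 134 CPM in LCH, and rose by 1.12 (SE 0.26). Mki67, the coat of mitotic chromosomes and the usual proliferation marker, had 229, 195 and 198 CPM in WT and 234, 235 and 164 CPM in LCH. Its log2 fold change was 0.02 (SE 0.15, adjusted p = 0.916). Its lowest library was LCH pool G.

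**Figure D2:**
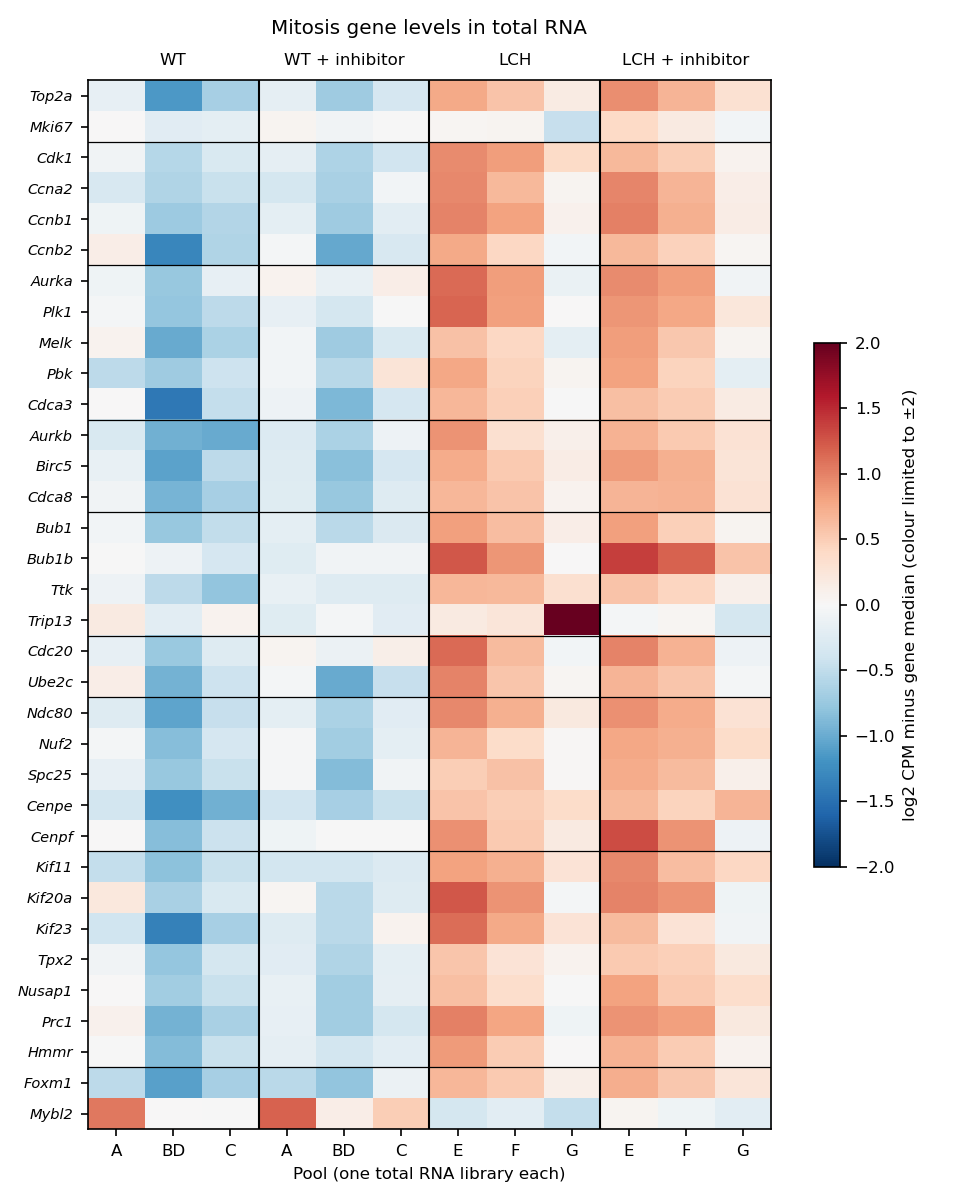
Level of each of the 34 genes (rows, by role) in the 12 total RNA libraries (columns, by group and pool), as log2 CPM minus the gene's median over the libraries, with colour limited to ±2. Most rows are highest in LCH pools E and F and lowest in WT pool BD, Mki67 and Mybl2 stand apart, and Trip13 is high in untreated LCH pool G alone (3098 CPM).

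The number of calls varied with the libraries included. Fits with a library or pool left out also hold fewer libraries, and their shares of all genes called are not given. Leaving out 1 total RNA library, 10 members rose without LCH pool E, 15 without F, 9 without WT pool BD, 10 without C, 26 without A and 30 without LCH pool G. Leaving out both libraries of a pool gave 9 without E, 9 without F, 30 without G, 25 without A, 11 without BD, where 1 was also called lower, and 8 without C. The 8 members Aurkb, Cdk1, Cenpe, Foxm1, Kif11, Kif23, Ndc80 and Ttk passed in each of these 12 fits.

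With inhibitor in both genotypes, 18 of 34 members were higher in LCH, none was lower and 16 did not pass. Of all genes tested, 9.27% were called higher and 11.1% lower, or 20.3% in all, and the members' median log2 fold change was 0.84 against 0.01. Bub1b (1.20, SE 0.28), Cenpe (1.09, SE 0.18), Birc5 (1.08, SE 0.25), Top2a (1.05, SE 0.26) and Kif11 (1.02, SE 0.17) rose. Cdk1 (0.81, SE 0.19), Ccnb1 (1.02, SE 0.28), Aurkb (0.83, SE 0.24) and Foxm1 (0.98, SE 0.21) rose as well. No member of the group of other kinases and entry factors passed, nor did Cdc20 (0.58, SE 0.31) or Ube2c. Bub1b had 23.8, 26.9 and 26.8 CPM in WT and 73.3, 63.4 and 41.5 CPM in LCH, without overlap. Smallest were Mybl2 (-0.73, SE 0.30), Trip13 (0.06, SE 1.48) and Mki67 (0.19, SE 0.15). Mki67 had 236, 215 and 225 CPM in WT and 299.9, 255 and 218 CPM in LCH, overlapping groups, and Mybl2 had 49.2, 23.9 and 30.5 CPM in WT and 22.7, 20.7 and 18.9 CPM in LCH. In 25 members all LCH libraries lay above all WT libraries, as in 18% of genes, and in 1, Mybl2, below, as in 19.6%. Calls again varied with the libraries included, in fits that hold fewer libraries. They numbered 3 without LCH pool E, 4 without F, 23 without G, 11 without WT pool A, 4 without BD and 8 without C. Without both libraries of a pool they numbered 3 for E, 2 for F, 27 for G, 14 for A, 9 for BD and 3 for C. Cenpe and Kif11 passed in each.

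**Figure D3:**
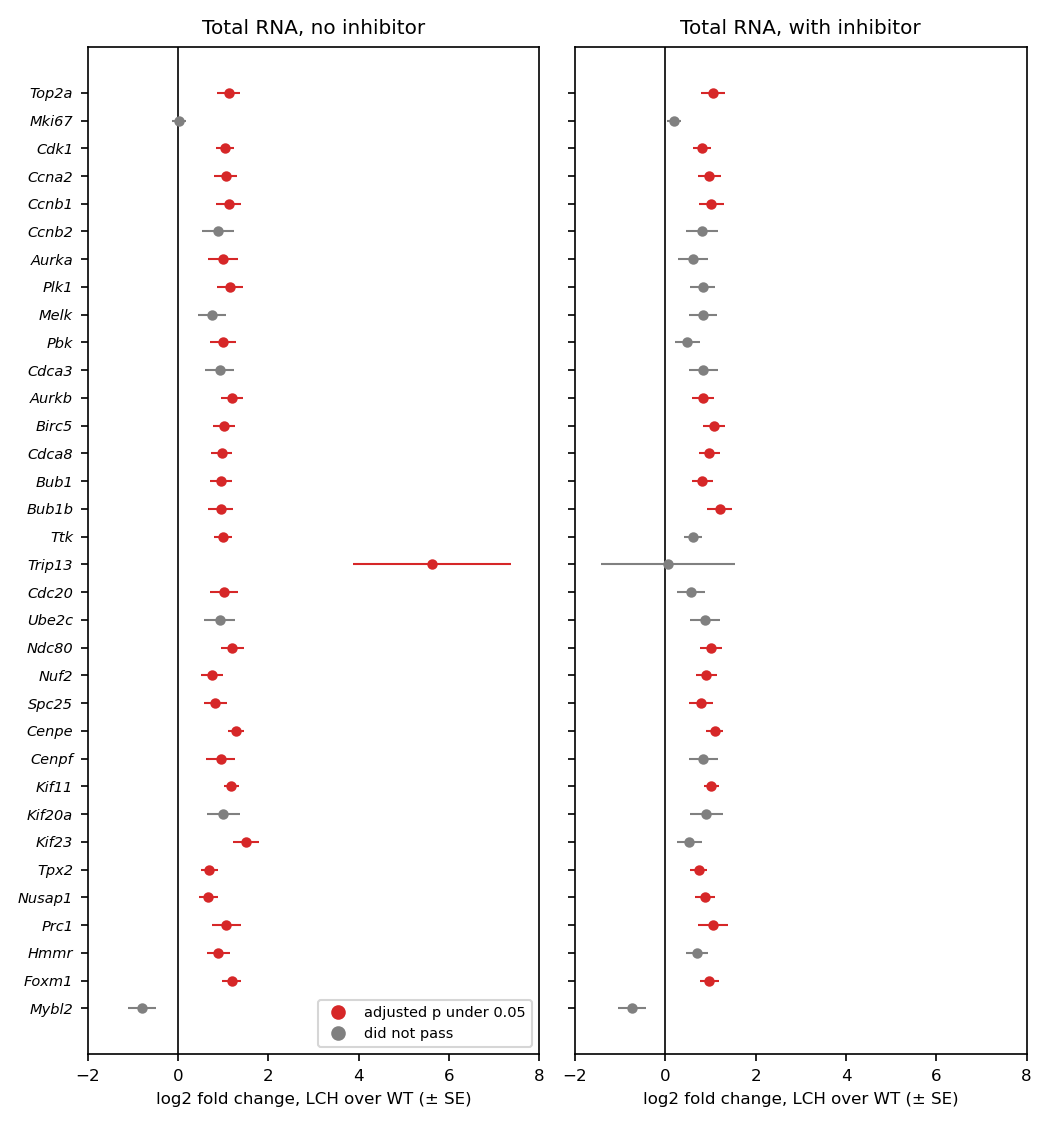
log2 fold change of LCH over WT in total RNA (horizontal axis, bars ± SE) for each of the 34 genes, without inhibitor at left and with inhibitor at right, with red for adjusted p under 0.05. Without inhibitor 27 genes passed and most estimates lie near 1, apart from Mki67 (0.02), Mybl2 (-0.79) and Trip13 (5.62), whose estimate comes from 1 library; with inhibitor 18 passed.

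Other genes of the cell cycle were compared from lists chosen with earlier results of these data known. Of 64 further mitosis genes, 46 rose without inhibitor and none fell, against 14.8% and 14.9% of all genes, with a median log2 fold change of 1.00 against 0.02. The smallest p-values belonged to the RhoA regulator gene Arhgap11a (1.27, SE 0.11, adjusted p = 2.6e-05), the kinetochore scaffold Knl1 (1.48, SE 0.21), the citron kinase gene Cit (1.53, SE 0.22) and the motor Kif14 (1.48, SE 0.22). Of 44 genes of S phase and replication, 19 rose and none fell against the same shares, with a median of 0.49. Rfc5 (0.68, SE 0.11), Lig1 (0.55, SE 0.12), Prim1 (0.76, SE 0.16) and Pola1 (0.55, SE 0.12), which load clamps, join, prime and extend DNA, had the smallest p. Of 10 G1 cyclins, kinases and regulators 4 rose and none fell, namely Ccnd1 (3.56, SE 0.22), Myc (1.98, SE 0.26), Ccnd3 (0.71, SE 0.14) and Cdk6 (0.40, SE 0.10). With inhibitor in both genotypes 32 of the 64 further mitosis genes rose, and 17 of the 44 genes of S phase and replication rose and 1 fell, against 9.27% and 11.1% of all genes. The inhibitor itself lowered 3 of the 10 G1 genes in LCH cells, Ccnd1, Ccnd3 (-1.41, SE 0.15) and Myc (-1.72, SE 0.25), and none of the 64 or the 44 passed in that comparison, in which 2 of each had an unadjusted p under 0.05 with edgeR.

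Among CDK inhibitor genes and genes of the DREAM, MuvB and RB families, calls went in both directions. Their rates were near the 29.7% of all genes called in LCH against WT without inhibitor. Of 7 CDK inhibitor genes, Cdkn2a rose by 2.37 (SE 0.27), from 1.09 to 1.28 CPM in WT up to 5.12 to 7.81 CPM in LCH, and Cdkn1b (p27) fell by 0.79 (SE 0.22). Of 11 measured genes of the DREAM, MuvB and RB families, E2f4 (0.50, SE 0.11) and Tfdp1 (0.48, SE 0.11) rose, and Rbl2 (p130) fell by 0.84 (SE 0.20) and E2f5 fell by 0.37 (SE 0.13). Of 17 genes of APC/C subunits and regulators 3 rose, against 14.8% of all genes. They were Anapc5 (0.34, SE 0.07), the APC/C inhibitor Fbxo5 (0.94, SE 0.27) and Ube2s (0.39, SE 0.12).

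Markers of some other cells differed with genotype, in a comparison that called 14.8% of all genes higher and 14.9% lower. The counts for dendritic cell and macrophage markers below are not far from these shares, nor is that of higher progenitor markers. All 17 dendritic cell markers had counts in all 12 total RNA libraries, and their summed level was 12598 to 18960 CPM in untreated WT and 17623 to 21797 CPM in untreated LCH, with 4 higher and 3 lower. Of 15 neutrophil markers 12 were lower in LCH, summed 1736 to 3813 CPM in WT and 654 to 872 CPM in LCH. Of 11 eosinophil, basophil and mast cell markers 10 were lower, summed 628 to 932 and 107 to 142 CPM. Of 16 macrophage and monocyte markers 3 were higher and 4 lower, summed 11317 to 20148 and 7740 to 10488 CPM. Of 11 measured progenitor markers 2 were higher and 4 lower, so the calls went in both directions. Their sum was 91.2 to 103 CPM in WT and 121 to 168 CPM in LCH. Lymphocyte and plasmacytoid markers summed to at most 8.85 CPM in any total RNA library, with Cd3e at 0 in at least 6 of the 12, as were the erythroid markers Alas2, Hba-a2, Hbb-bs, Klf1 and Slc4a1. Stromal and endothelial markers summed to at most 68.0 CPM, most of it Pecam1. The part of these cells in the level of the mitosis genes was not tested.

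The inhibitor for 1 h moved the mitosis genes little. In LCH total RNA no member passed, with 0.142% of all genes called higher and 0.598% lower, or 0.74% in all; 1 member, Trip13, had an unadjusted p under 0.05 with edgeR, and DESeq2 called no member. In WT no member passed (0.673% higher and 0.0374% lower among all genes, 0.71% in all), and none had an unadjusted p under 0.05. The members' median log2 fold change was 0.03 in LCH and 0.12 in WT. The difference of the responses passed for no member (0.0523% of genes positive and 0.351% negative, 0.404% in all), with 2 members at an unadjusted p under 0.05, while DESeq2 called no member. In LCH 1 member lay above in all treated libraries and 1 below, as did 9.02% and 9.33% of genes, and in WT 2 lay above, as did 11.2%, and 0 below, as did 8.45%.

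Libraries of 1 pool with and without inhibitor deviated together, though weakly in WT pool C (r = 0.11), so the pool was also fitted as a replicate block. In LCH, 5 members then rose and 2 fell, against 8% and 9.21% of all genes tested. The risers were Mki67 (0.30, SE 0.06), Bub1b (0.32, SE 0.09), Nuf2 (0.26, SE 0.08), Nusap1 (0.25, SE 0.08) and Mybl2 (0.28, SE 0.09). Cdk1 fell by 0.31 (SE 0.06, adjusted p = 0.00245) and Kif23 fell by 0.44 (SE 0.10, adjusted p = 0.00454). Cdk1 went from 45.8 to 37.5 CPM in pool E, from 42.5 to 33.7 in F and from 31.0 to 25.2 in G. All pools thus moved down, and pool G lay below E and F both with and without inhibitor. In WT, 4 rose and none fell, against 10.5% and 11.1% of genes, namely Top2a (0.24, SE 0.07), Aurka (0.33, SE 0.11), Cdc20 (0.40, SE 0.10) and Kif23 (0.54, SE 0.12). In LCH 7 of 34 members passed in either direction, against 17.2% of all genes, and in WT 4 of 34, against 21.7%, so neither count stands out from the background.

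The responses of Kif23 and Cdc20 differed between genotypes in the blocked fit. Kif23 went from 28.8 to 20.6 CPM in LCH pool E, from 22.3 to 15.9 in F and from 16.0 to 12.6 in G. In WT it went from 10.1 to 11.03 CPM in pool A, from 5.18 to 9.11 in BD and from 8.32 to 13.8 in C. All LCH pools fell and all WT pools rose, and the difference of the log2 responses was -0.98 (SE 0.16, adjusted p = 0.000294). For Cdc20 it was -0.44 (SE 0.13, adjusted p = 0.0213), with WT responses of 0.22, 0.62 and 0.38 and LCH responses of -0.13, 0.06 and -0.05 in pools A, BD, C, E, F and G. Among all genes, 9.88% were called with a positive and 9.85% with a negative difference in this fit, or 19.7% in all. No other member was called, so the members do not stand out from the background. Without the block neither Kif23 nor Cdc20 passed (adjusted p = 0.37 and 0.746).

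**Figure D4:**
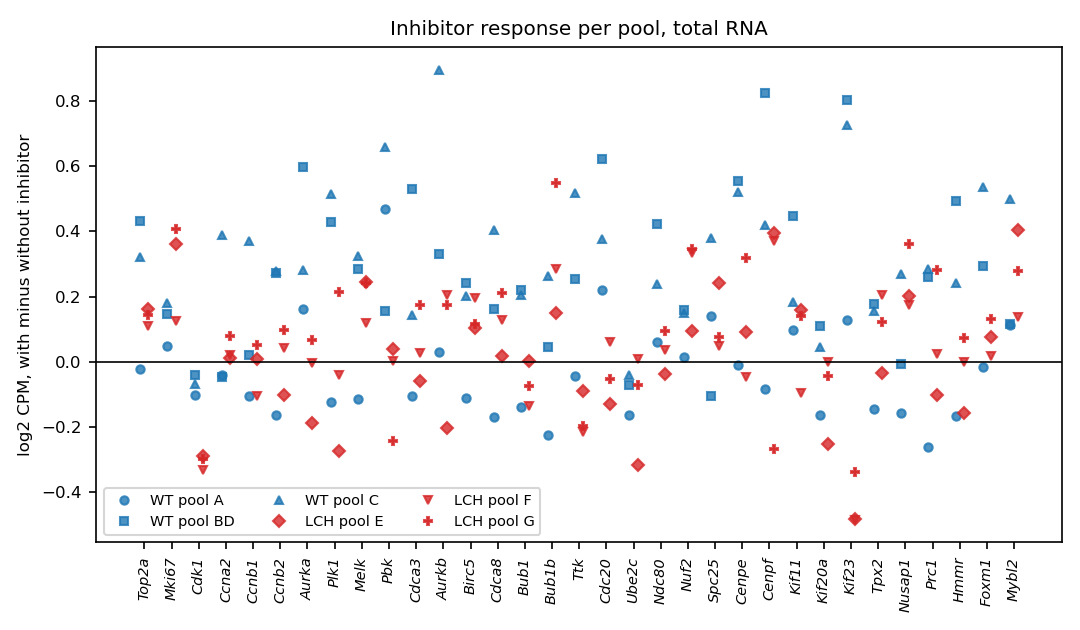
Change of log2 CPM with inhibitor in total RNA (vertical axis) for 33 mitosis genes (horizontal axis, Trip13 left out), with 1 point per pool, blue for WT and red for LCH. The 198 points run from -0.49 to 0.90 with a median of 0.11, WT pools BD and C are mostly above 0, and Kif23 separates the genotypes, with all LCH pools below and all WT pools above 0.

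Between pools most of the genes moved together, as did some genes outside the group. The deviation of each member from its group means was correlated with the mean deviation of the other members over the 12 total RNA libraries, a description across libraries that share pools. The median Pearson r was 0.94, and 29 of 34 members exceeded 0.8, against 7.38% of all genes. The highest were Bub1 (0.98) and Ndc80 (0.98), and Mki67, whose level did not differ by genotype beyond its error, had 0.89. The 5 members below 0.8 were Ttk (0.77), Bub1b (0.72), Cenpe (0.66), Mybl2 (0.66) and Trip13 (-0.50). In untreated LCH, pool E was highest for 30 of 33 members and pool G lowest for 33 of 33, Trip13 aside. In untreated WT, pool A was highest for 31 and pool BD lowest for 29. With inhibitor the same pools led, with E highest for 31 and G lowest for 32 members in LCH, and A highest for 21 and BD lowest for 30 in WT. The share of all genes with the same order of pools is not given, so this order is not shown to be particular to the members.

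The genes outside the group most alike in this measure were Tpp2, Rnf40, Incenp, Hirip3, Myh9, Depdc1a, Uhrf1, Kpna2, Tubb4b and Tuba1c, with r from 0.97 to 0.99 over 12 libraries. The further mitosis genes had a median r of 0.90 and those of S phase and replication 0.54. In the 6 LCH total RNA libraries alone the median r was 0.98, with 32 of 34 over 0.8, against 24.9% of genes. In the 6 LCH polysome libraries it was 0.55, with 10 of 34 over 0.8, against 5.37% of genes. The difference between fractions was not tested.

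On LCH polysomes some mitosis genes lay above and others below their level in total RNA, and most roles held both kinds or genes on neither side. Polysome level was set against total RNA in the same cultures, with the culture as a block, and both were scaled to library size. A value of 0 means equal scaled levels and is neither the typical gene's value, which was lower, nor a number of ribosomes. Without inhibitor 9 of 34 members were higher and 8 lower in polysome RNA, against 14.8% and 14.6% of 14816 genes tested (29.5% in all). With inhibitor 7 were higher and 11 lower, against 12.9% and 17.2% (30.1% in all). The members' median log2 ratio was -0.11 and -0.08, against -0.26 and -0.24 over all genes. In 9 members the ratio was above 0 in all 6 cultures, in 11 below 0 in all 6, in 12 on both sides, and Pbk and Ttk lacked a polysome count in pool F in at least 1 culture. The share of all genes on a single side in all 6 cultures is not given, so this split is not shown to be particular to the members.

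The passenger genes Birc5 and Cdca8 were above 0 in all 6 cultures and their partner Aurkb below in all 6. Aurkb did not pass with or without inhibitor, however, and its lowest ratio rested on 1 polysome count. Both partners of APC/C lay above 0. The log2 ratio of Ube2c in pools E, F and G was 2.09, 2.42 and 2.18 without inhibitor and 2.25, 2.03 and 1.49 with it. Its fitted value without inhibitor was 2.23 (SE 0.21, adjusted p = 2.25e-07). Cdc20 had 0.99 (SE 0.24) without and 1.08 (SE 0.24) with inhibitor. Birc5 had the largest ratio of the members, with 2.22, 2.72 and 1.97 in pools E, F and G without inhibitor and 2.47, 2.05 and 1.59 with it, and a fitted value of 2.30 (SE 0.23, adjusted p = 4.69e-07). The other called members of this kind were Cdk1 (1.79, SE 0.22), Mki67 (1.52, SE 0.26), Ndc80 (1.46, SE 0.24), Cdca8 (1.19, SE 0.21), Cenpf (0.97, SE 0.33) and Melk (0.87, SE 0.29), each without inhibitor. Cenpf (0.01, SE 0.33) and Melk (0.61, SE 0.28) did not pass with it.

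Ccnb1 and most spindle genes lay below 0. The log2 ratio of Ccnb1 was -2.09, -2.05 and -1.41 in pools E, F and G without inhibitor and -3.78, -3.24 and -1.95 with it. The 2 cyclin B genes differed here, with a fitted value of -1.84 (SE 0.34, adjusted p = 0.000408) for Ccnb1 and -0.02 (SE 0.25, adjusted p = 0.971) for Ccnb2 without inhibitor; their difference was not tested. Cdk1, their kinase, lay above 0 in all 6 cultures, from 1.26 to 2.19. Hmmr had -2.59 (SE 0.55) without inhibitor, on 30, 4 and 13 polysome counts, and Kif20a had -1.78 (SE 0.56), on 65, 11 and 48 counts. With inhibitor they had -3.26 (SE 0.57) and -2.68 (SE 0.59), with 1 and 2 counts in pool F. Kif11 (-1.56, SE 0.36), Nusap1 (-0.90, SE 0.26) and Prc1 (-0.78, SE 0.23) were also lower without inhibitor, as were the checkpoint genes Bub1 (-1.42, SE 0.38) and Bub1b (-1.29, SE 0.25). With inhibitor Ccna2 (-0.73, SE 0.24), Kif23 (-0.99, SE 0.34) and Foxm1 (-1.39, SE 0.43) passed as well. Top2a (-0.06, SE 0.19), Plk1 (0.13, SE 0.27), Aurka (0.17, SE 0.34) and Tpx2 (0.20, SE 0.21) lay near 0 without inhibitor.

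Polysome counts of several members were small in pool F, and the lower calls with inhibitor numbered 5 without pool E. Of the calls, 12 of 17 without inhibitor and 12 of 18 with it passed without each pool in turn. When the 12 WT libraries joined the fit, no member passed. Cdca8, Cdc20, Kif20a and Nusap1 each overlap another gene on the opposite strand whose counts came to over 10% of theirs. In total RNA, Elovl1 had 18303 counts against 4819 for Cdc20, and Cdc23 had 3996 against 5453 for Kif20a. The sources used here do not say whether counting used strand.

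**Figure D5:**
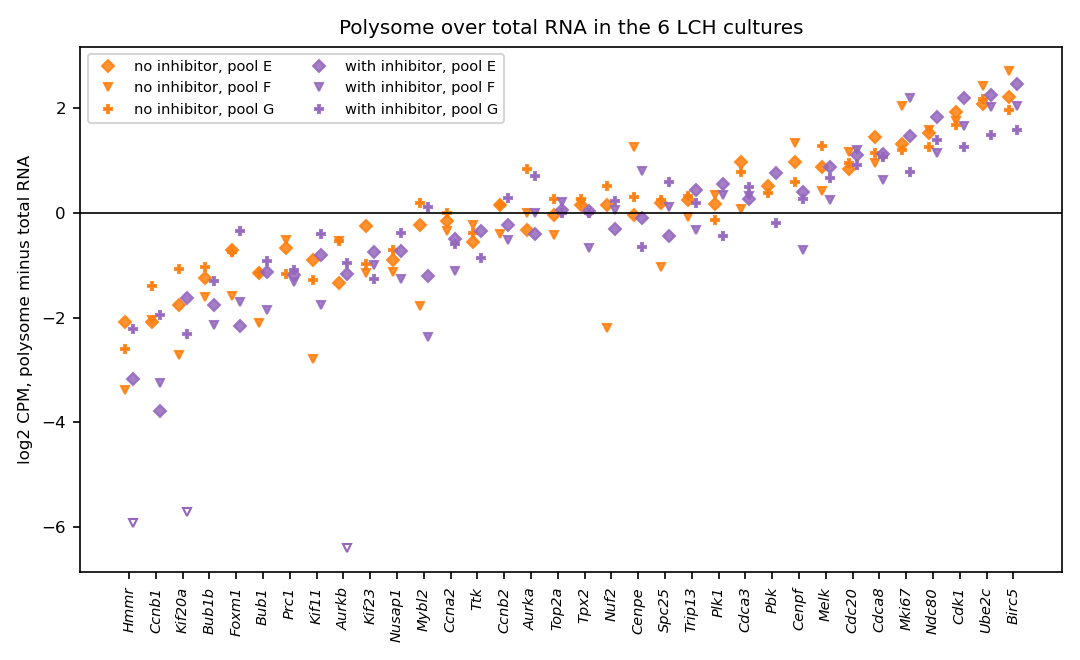
log2 CPM in polysome minus total RNA (vertical axis) for each of the 34 genes (horizontal axis, ordered by median) in the 6 LCH cultures, orange without and purple with inhibitor. Open symbols rest on at most 3 polysome counts, and cultures with no polysome count are not drawn; Birc5, Ube2c and Cdk1 lie above 0 and Hmmr, Ccnb1 and Bub1b below 0 in all 6 cultures.

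For the inhibitor on LCH polysomes no member passed, in a fit with little power. In simulated data it recovered 0 of 67 genes changed 2-fold and 22 of 66 changed 4-fold. The readouts Ccnd1 (mean 81.5 to 22.7 CPM) and Dusp6 (14.6 to 3.88 CPM) did not pass either. The lack of calls therefore does not show that the members stayed unchanged. No gene of 10757 was called (0%), 289 genes but no member had an unadjusted p under 0.05, and DESeq2 called no member. With the pool as a block 0 members passed, against 0.0651% of genes higher and 0.205% lower, or 0.27% in all. The largest values of the members outside Trip13 were 0.78 (SE 0.51) for Kif11 and -0.92 (SE 0.54) for Ccnb1. Ccnb1 had 4.64, 4.72 and 4.03 CPM in pools E, F and G without and 1.49, 1.97 and 3.62 CPM with inhibitor. These levels rest on 16 to 72 counts per library. Pbk was at 0 in both pool F libraries, where 3 counts correspond to 0.524 and 0.370 CPM. The change of the polysome to total ratio with inhibitor passed for no gene of 14816 (0%), with 205 genes at an unadjusted p under 0.05, of which 1 was a member, and DESeq2 called no member. Ccnb1 (-1.14, SE 0.49) had the largest size.

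In WT polysome RNA 15 members had any count. Mki67 had 1, 56 and 31 counts in pools A, BD and C without inhibitor and 7, 32 and 0 with it, and Tpx2 had 1, 39 and 0 and then 42, 0 and 31. The other 19 were at 0 in all 6 WT polysome libraries, so any of them that passed the low-count filter did so through the LCH libraries and could only be called higher. The LCH against WT test on polysomes called 20 of 33 members higher without and 22 with inhibitor, against 21.4% and 39.5% of 9902 genes. It called none lower, against 0.717% and 1.1%; in either direction 22.1% and 40.6% of genes were called. These counts are fixed in part by the filter and are not evidence of a difference between the genotypes. Without treated WT pool BD the count with inhibitor was 0. At this depth no fold change of a member between the genotypes on polysomes is given.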

How the data were processed

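RNA-seq of 24 libraries was analysed from the raw gene counts that the authors deposited, made with Salmon and DESeq2 per the submitters' processing notes, which name build mm9; versions, annotation and strand use are not given in the sources used here. Regularised log2 values that the authors deposited (rlog, per the file headers) served as an alternative input. Columns were mapped by genotype, inhibitor and fraction in their names; pool GH of polysome RNA was treated as pool G. The file's gene positions did not match the GRCm38.p6 promoter table and no positions were mixed.

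The count test was the quasi-likelihood test of edgeR 4.0.16, run under R 4.3.3 (TMM, filterByExpr with minimum count 10, robust, two-sided, Benjamini-Hochberg over all genes, 0.05), with DESeq2 1.42.0 and limma 3.58.1 as alternatives and single libraries or pools left out. SE derives from the test statistic. The 12 total RNA libraries were fitted together, LCH polysomes alone. The scripts were tested on simulated data. There the share of false calls was above the threshold in the fit with pool as a block and in the fit of polysome against total RNA, so calls of both fits are less certain than their adjusted p.

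Pool was accepted as a block because the same-pool correlation of deviations exceeded 0.1 for every pair (0.52, 0.35 and 0.73 in LCH, 0.42, 0.37 and 0.11 in WT total RNA). Between unlike LCH pools, untreated E against treated F gave 0.37 and F against E 0.32. In WT, untreated C against treated BD gave 0.06, and the remaining unlike pairs in total RNA were negative. The same pool is thus not clearly singled out for LCH pool F and WT pool C. Where pools come from is not stated, so this rests on the data.

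One marker gene and the summed level of its list are not reported here. Members and lists were chosen with earlier results of these data known. All members were accounted for; values per library were given for Top2a, Mki67, Cdk1, Ccnb1, Plk1, Aurkb, Cdc20, Foxm1 and members with the largest or smallest changes.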

Additional observations from a re-analysis of the deposited data

Results flagged for a closer look

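The inhibitor response of 2 members differed between genotypes in total RNA when the pool was fitted as a block (edgeR interaction test). For Kif23 the LCH response minus the WT response was -0.98 on the log2 scale (SE 0.16, adjusted p = 0.000294), with all 3 LCH pools lower and all 3 WT pools higher with inhibitor. For Cdc20 it was -0.44 (SE 0.13, adjusted p = 0.0213), with 2 of 3 LCH pools lower and all 3 WT pools higher. Without the block neither passed, and 9.85% of all genes were called in this direction with it. No other member was called, so the members do not stand out from the background. Calls of the blocked fit are less certain than their adjusted p. Cdc20 also overlaps Elovl1 on the opposite strand, and the sources used here do not say whether counting used strand.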

How the results depend on the processing

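The rise of the mitosis genes in LCH total RNA kept its direction under each alternative run, and 21 to 30 members rose without inhibitor and 12 to 26 with it across tools, scaling and filter; DESeq2 also called 1 member lower without inhibitor. Leaving out libraries or pools gave 8 to 30 and 2 to 27 members higher and 0 to 1 lower. Shares of all genes called are not given beside the counts of alternative runs here. These counts are therefore not shown to be particular to the members. Without the low-count filter and without inhibitor, the median over all genes lay above that of the members. Mki67 without inhibitor changed sign around 0, to -0.0015 without the rRNA-type genes and between -0.10 and 0.18 with a library or pool left out. Top2a in WT with inhibitor ran from -0.013 to 0.49 with 1 left out. The replicate block turned 0 calls for the inhibitor into 5 higher and 2 lower in LCH, 4 higher in WT and 2 lower for the difference of responses, and left LCH polysomes at 0; without the low-count filter 1 was lower for the difference. For polysome against total RNA without the block, 6 were higher and 6 lower without inhibitor and 6 and 8 with it, and all 24 libraries together gave 0 in each. Leaving out a culture gave 6 to 8 higher and 6 to 8 lower without inhibitor, and 7 higher and 5 to 10 lower with it. LCH against WT on polysomes was unstable, with 11 and 5 higher and 1 lower (with inhibitor) by DESeq2, 0 with inhibitor by DESeq2 size factors, 13 and 2 without the filter, and 14 to 19 and 0 to 22 with a library left out; the cause was not tested. Without rRNA-type genes the summed polysome means with Trip13 were 2403 and 1629 CPM, as fewer counts make up the total. Leaving Trip13 out of the sums, chosen after seeing the data, lowered untreated LCH total RNA from 2297 ± 1501 to 1248 ± 294 CPM (SD, n = 3). Depth limits the WT polysome libraries and members with few counts in LCH pool F.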
